A study of Mus musculus with 28 samples.

Results

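The genes described here are 9 genes of differentiated tissues whose RNA was higher in embryonic stem cells (ESCs) lacking Tet2 than in the wildtype or mutant cells: Ltb, Ror1, Gabra3, Piezo2, Gjb2, Ms4a4d, Tmem200a, Chst1 and Sprr2a3. They are 9 of the 17342 genes in the table. They were picked by symbol because their normalized counts were higher in the 2 Tet2-KO libraries than in the 3 Tet2-WT or the 2 Tet2-Mut libraries. The differences of Tet2-KO from the other groups therefore chose the genes, and they are given as values with no test. Both Tet2-KO libraries lay above the other 5 libraries for 9 of the 9 genes. The same held for 2036 of the 17338 genes tested, or 11.7%, so that the 9 are a selection from a much longer list.

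The study measured RNA from the male mouse ESC line V6.5, of mixed 129 and C57BL/6 background, in 3 genotypes. Tet2-WT cells are wildtype at Tet2 (n = 3 independent ESC cultures), Tet2-Mut cells carry a mutant Tet2 (n = 2 clones) and Tet2-KO cells are knocked out for Tet2 (n = 2 clones). The labels do not describe the mutation or the knockout allele; the design text gives the noncatalytic functions of Tet2 as the question. Cells of every genotype were grown with serum and LIF on a feeder layer, separated from the feeders by pre-plating and kept on gelatin overnight before RNA was taken. A clone may carry differences of its own, and each Tet2-Mut or Tet2-KO group holds 2 clones only. Tet2 itself was measured at 10343, 10244 and 12074 normalized counts in Tet2-WT, at 9992 and 13181 in Tet2-Mut, and at 4624 and 5206 in Tet2-KO. Reads assigned to genes ran from 41.9 M to 58.5 M per library. A count of 3 reads, used as the floor, was worth 2.5 to 3.54 normalized counts.

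Tet2 oxidises 5-methylcytosine in DNA and also binds partners at chromatin, and Tet2 is one of the main Tet enzymes of mouse ESCs. Undifferentiated ESCs keep most genes of specialised tissues at a low level. The 9 genes belong to unrelated tissues: a lymphoid ligand, receptors and channels of neurons and sensory cells, membrane proteins, an enzyme of keratan sulfate and a protein of the skin barrier. Normalized counts depend on transcript length, so levels are compared within a gene and never between genes. In bulk RNA a few cells with much of an RNA and many cells with little cannot be told apart.

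The stretches just before the transcription start of 3 of the genes show how unlike their promoters are in CG dinucleotides, the sites of DNA methylation: Gabra3 had the fewest of the 8 genes with a listed promoter, Ltb an intermediate number and Gjb2 the most. The sequences are from RefSeq on GRCm38.p6, each the 250 bases before the first listed start, 5′ to 3′, with CG in capitals. Those of Gabra3 (chrX:72656920-72657169) and Gjb2 (chr14:57104703-57104952) are from the minus strand, and that of Ltb (chr17:35194257-35194506) is from the plus strand.
Gabra3: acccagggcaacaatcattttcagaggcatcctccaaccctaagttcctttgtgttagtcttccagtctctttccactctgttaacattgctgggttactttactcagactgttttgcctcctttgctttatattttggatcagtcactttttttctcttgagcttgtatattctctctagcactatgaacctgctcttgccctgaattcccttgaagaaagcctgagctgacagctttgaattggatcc
Ltb: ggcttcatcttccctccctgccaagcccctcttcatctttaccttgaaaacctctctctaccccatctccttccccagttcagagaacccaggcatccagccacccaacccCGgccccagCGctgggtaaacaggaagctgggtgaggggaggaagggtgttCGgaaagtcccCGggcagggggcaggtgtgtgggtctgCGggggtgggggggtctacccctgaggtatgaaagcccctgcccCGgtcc
Gjb2: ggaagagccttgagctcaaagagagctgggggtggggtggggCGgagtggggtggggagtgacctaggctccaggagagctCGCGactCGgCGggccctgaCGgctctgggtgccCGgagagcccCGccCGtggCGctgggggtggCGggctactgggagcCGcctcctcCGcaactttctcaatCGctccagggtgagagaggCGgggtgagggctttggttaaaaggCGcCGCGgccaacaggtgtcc

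Promoter windows of 300 bases, from 250 before to 50 after the start, were listed for 8 of the 9 genes. The number of CG was 0 in Gabra3, 1 in Chst1, 1 in Sprr2a3, 5 in Ms4a4d, 6 in Tmem200a, 7 in Ltb, 10 in Ror1 and 27 in Gjb2. The window of Chst1 (chr2:92600867-92601166, plus strand) lies inside the span of the gene given below. Its CG count therefore does not describe the 5′ end of that span. Gjb2 alone of these 8 has a CG-rich window, and the other 7, Chst1 among them, hold 10 or fewer. The limit of 10 is the count of Ror1, the highest of the 7, so it follows from these values. The shares below are a description and no test. The share of promoters with 10 or fewer was 23.2% among the 12102 promoters of genes in the table, whose median was 20, but 49.5% among the 2659 of them with a Tet2-WT mean under 100 normalized counts, whose median was 11. All 9 genes lie under that level in Tet2-WT, so the low-level genes are the closer background. No methylation value was analysed here.

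A set of 3 short motifs was searched on both strands of the same 300-base windows, chosen after the sequences had been read. The letters TATAAA of the TATA box were in 1 of the 8 promoters (Gabra3) and in 14.2% of 27025 promoters. In Gabra3 the match is the reverse complement TTTATA, so it is not a TATA box in the sense of the gene. The Sp1 motif GGGCGG was in 3 of 8 (Gjb2, Ms4a4d and Ror1) and in 35.9% of all, and the Tcf/Lef motif CTTTGAT in 1 of 8 (Ms4a4d) and in 3.72%. No motif was shared by most of the 8, and a match describes the letters only.

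Ltb encodes lymphotoxin beta, a membrane ligand of the TNF family that lymphoid cells use to organise lymphoid tissue. It lies at chr17:35194507-35196305, within the major histocompatibility complex. Tet2-WT held 95.7, 108 and 55.5 normalized counts, Tet2-Mut 81.4 and 67.5, and Tet2-KO 387 and 319. Both Tet2-KO clones stood well above the other libraries, and the Tet2-Mut clones lay inside the Tet2-WT range. Ltb had the smallest standard errors of the 9 genes: the log2 fold change of Tet2-KO was 2.07 (SE 0.31) over Tet2-WT and 2.23 (SE 0.34) over Tet2-Mut.

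Ror1 encodes a receptor tyrosine kinase that binds Wnt5a and is used in embryonic skeleton and limb development. It lies at chr4:100095791-100444806. Ror1 was measured at 94.9, 136 and 66.1 normalized counts in Tet2-WT, 165 and 48.2 in Tet2-Mut, and 475 and 395 in Tet2-KO. The Tet2-Mut clones fell on either side of the Tet2-WT range, while both Tet2-KO clones were above it. The log2 fold change was 2.18 (SE 0.48) over Tet2-WT and 2.26 (SE 0.52) over Tet2-Mut.

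Gabra3 encodes the alpha-3 subunit of the GABA-A receptor, a chloride channel opened by the transmitter GABA in brain. It lies at chrX:72432676-72656919. Gabra3 levels were low, at 8.32, 20.7 and 7.08 normalized counts in Tet2-WT (10, 22 and 6 reads), 39.1 and 7.72 in Tet2-Mut (38 and 8 reads), and 142 and 68.2 in Tet2-KO (138 and 66 reads). The 2 clones of each modified genotype were far apart, and Tet2-Mut replicate 1 exceeded every Tet2-WT library. The log2 fold change was 3.08 (SE 0.73) over Tet2-WT and 2.41 (SE 0.79) over Tet2-Mut.

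Piezo2, on chromosome 18, encodes the mechanically opened cation channel of touch and body position sense. Piezo2 was measured at 31.6, 33.9 and 26.0 normalized counts in Tet2-WT (38, 36 and 22 reads), 24.7 and 9.65 in Tet2-Mut (24 and 10 reads), and 272 and 184 in Tet2-KO (264 and 178 reads). In normalized counts the 3 groups did not overlap: Tet2-Mut was lowest, Tet2-WT next and Tet2-KO far above. In reads Tet2-Mut replicate 1 (24) was above Tet2-WT replicate 3 (22), so the gap between these 2 groups rests on the scaling. The lower Tet2-KO clone was 5.43 times the highest other library, with log2 fold changes of 2.84 (SE 0.43) over Tet2-WT and 3.77 (SE 0.47) over Tet2-Mut.

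Gjb2 encodes connexin 26, a gap junction channel of cochlea and epithelia whose loss causes inherited deafness. It lies at chr14:57098602-57104702. Its normalized counts were 10.8, 5.65 and 2.36 in Tet2-WT (13, 6 and 2 reads), 28.8 and 23.2 in Tet2-Mut (28 and 24 reads), and 84.6 and 28.9 in Tet2-KO (82 and 28 reads). Tet2-KO replicate 2 and Tet2-Mut replicate 1 had 28 reads each, so the label of a gene raised only in the knockout rests for Gjb2 on 1 clone. Both Tet2-Mut clones were above all Tet2-WT libraries. The log2 fold change of Tet2-KO was 2.98 (SE 0.67) over Tet2-WT and 0.92 (SE 0.73) over Tet2-Mut.

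Ms4a4d belongs to the Ms4a family of membrane proteins with several members on leukocytes. It lies at chr19:11536794-11558466. Ms4a4d was measured at 6.66, 13.2 and 4.72 normalized counts in Tet2-WT (8, 14 and 4 reads), 28.8 and 5.79 in Tet2-Mut (28 and 6 reads), and 64.0 and 62.0 in Tet2-KO (62 and 60 reads). The Tet2-KO clones were nearly equal, whereas Tet2-Mut replicate 1 lay above and replicate 2 inside the Tet2-WT range. The log2 fold change was 2.91 (SE 0.69) over Tet2-WT and 2.17 (SE 0.76) over Tet2-Mut.

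Tmem200a encodes a transmembrane protein whose role is little described. It lies at chr10:25991182-26079209. Its normalized counts were 21.6, 20.7 and 7.08 in Tet2-WT (26, 22 and 6 reads), 39.1 and 42.4 in Tet2-Mut (38 and 44 reads), and 170.3 and 113 in Tet2-KO (165 and 109 reads). The order was Tet2-WT, Tet2-Mut, Tet2-KO with no overlap between groups. The log2 fold change of Tet2-KO was 3.14 (SE 0.50) over Tet2-WT and 1.74 (SE 0.54) over Tet2-Mut.

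Chst1 encodes the sulfotransferase that adds sulfate to galactose of keratan sulfate. It lies at chr2:92599632-92615252. Chst1 was measured at 102, 64.0 and 82.6 normalized counts in Tet2-WT (122, 68 and 70 reads), 53.5 and 5.79 in Tet2-Mut (52 and 6 reads), and 149 and 196 in Tet2-KO (144 and 190 reads). Both Tet2-Mut clones were below Tet2-WT, one of them with 6 reads, and the lower Tet2-KO clone was 1.46 times the highest Tet2-WT library. The log2 fold change of Tet2-KO was 1.06 (SE 0.71) over Tet2-WT, the smallest of the 9, and 3.16 (SE 0.78) over Tet2-Mut.

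Sprr2a3 encodes a small proline-rich protein that is cross-linked into the cornified envelope of skin and other barrier epithelia. It lies at chr3:92285304-92289264, in the epidermal differentiation cluster. Its normalized counts were 1.66, 1.88 and 0 in Tet2-WT (2, 2 and 0 reads), 4.12 and 0 in Tet2-Mut (4 and 0 reads), and 72.3 and 28.9 in Tet2-KO (70 and 28 reads). Outside Tet2-KO only Tet2-Mut replicate 1 was above the floor of 3 reads. As a description of the values that chose the gene, the ratio of mean levels was 42.8 over Tet2-WT and 24.6 over Tet2-Mut, each from 98 against 4 reads, and the Tet2-KO clones were 2.5 times apart. Of the 63 read counts of the 9 genes, 54 (85.7%) were even; whether the mates of a pair were counted separately was not tested.

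Sprr2a3 has near-identical copies, so its reads are uncertain in origin. The sequence before its start (GRCm38.p6, chr3:92285054-92285303, plus strand) shows the likeness, with the run that is also found at Sprr2a1 in capitals.
Sprr2a3: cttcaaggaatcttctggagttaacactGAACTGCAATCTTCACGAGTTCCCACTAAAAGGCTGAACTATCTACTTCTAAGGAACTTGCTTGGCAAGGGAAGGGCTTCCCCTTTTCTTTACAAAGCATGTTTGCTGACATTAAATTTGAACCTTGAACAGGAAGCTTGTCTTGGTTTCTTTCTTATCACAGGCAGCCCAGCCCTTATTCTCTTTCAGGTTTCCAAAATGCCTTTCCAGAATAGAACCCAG
The shared run covers 222 of these 250 bases and 272 of the 300 in the whole window. The windows of Sprr2a1 and Sprr2a2 are identical over all 300 bases. Neither copy has a tested row here, and which copy gave the reads was not tested.

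**Figure D1:**
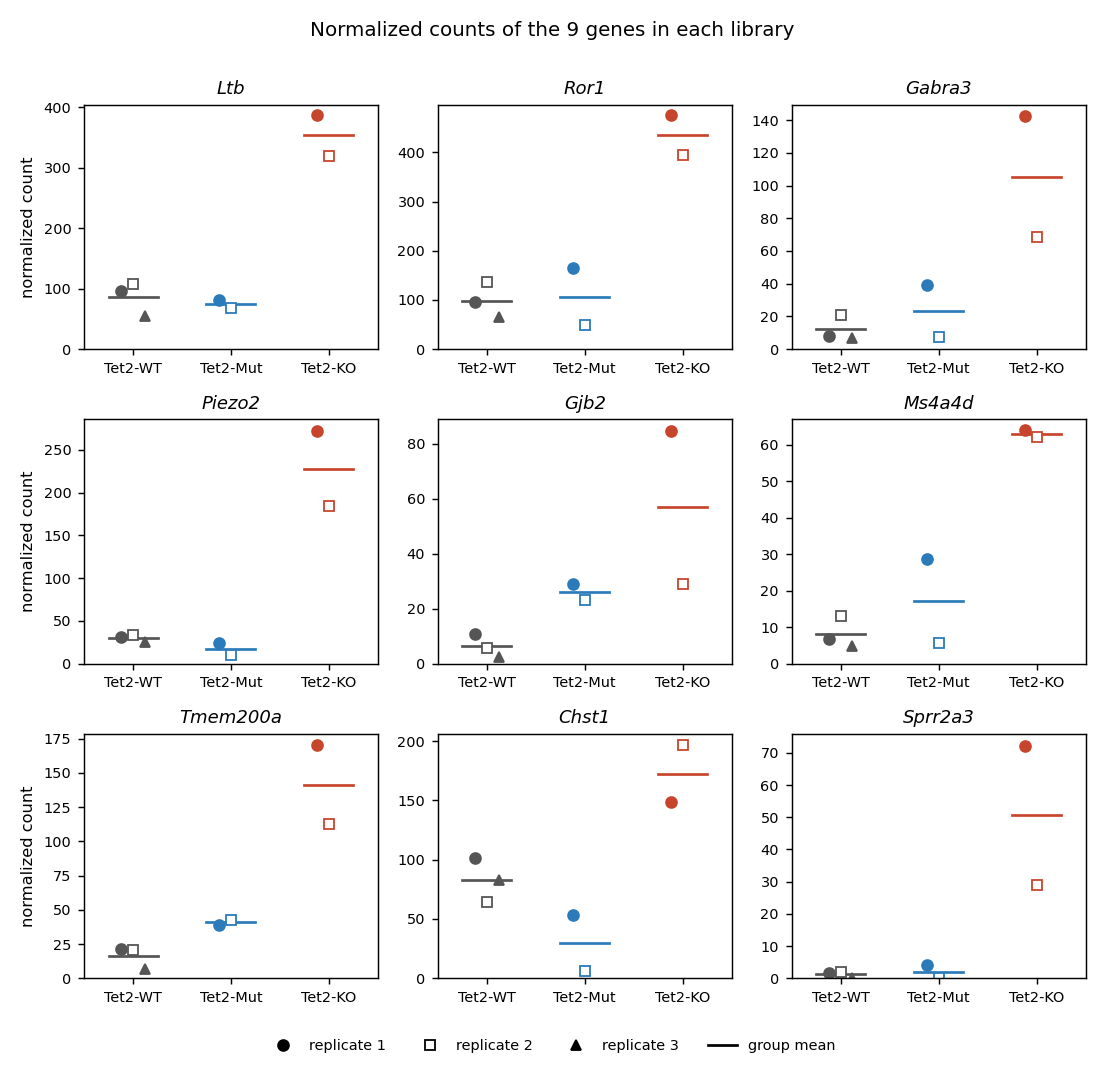
Normalized count (vertical axis, linear from 0, a separate scale for each gene) of the 9 genes in each of the 7 libraries, with points for libraries and lines for group means. Both Tet2-KO clones are above the other 5 libraries in each panel, by a margin that is widest relative to the next library for Sprr2a3 and closes for Gjb2, where 28.9 meets 28.8.

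The 9 genes differed in where the Tet2-Mut clones lay. For Ltb both clones were inside the Tet2-WT range, for Ror1 they were 0.79 above and 0.96 below the Tet2-WT mean on the log2 scale, and for Sprr2a3 the 4 reads of each group are too few to place them. For Tmem200a and Gjb2 both Tet2-Mut clones were above all Tet2-WT libraries, as for 20.9% of all genes. For Piezo2 and Chst1 both were below, as for 19.8% of all genes.

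Tet2-Mut against Tet2-WT is the only contrast that did not choose the genes as such, although a gene high in Tet2-Mut could not have been chosen. None of the 9 passed limma's test in it (0 of 9, beside 3.43% of all genes tested), but Sprr2a3, with at most 4 reads in each of these 5 libraries, entered the fit through Tet2-KO only and could not have passed. edgeR and DESeq2 on the recovered reads also gave 0 of 9, beside 582 and 1551 of the 17338 genes tested. At an unadjusted p under 0.05 there were 3 of 9, beside 21.1% of all genes. These were Tmem200a (log2 fold change 1.40, SE 0.50, limma adjusted p = 0.157), Gjb2 (2.06, SE 0.67, adjusted p = 0.127) and Chst1 (-2.10, SE 0.71, adjusted p = 0.142). Piezo2 was at -0.92 (SE 0.43, adjusted p = 0.260), Gabra3 at 0.67 (SE 0.73) and Ms4a4d at 0.74 (SE 0.69). Without Tet2-Mut replicate 1 the log2 fold change was -1.56 for Piezo2 and -3.60 for Chst1. Both values then rest on 1 Tet2-Mut clone, whose spread is taken from the other groups. Where no test was passed, standard errors of up to 0.97 leave room for differences of the size seen.

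**Figure D2:**
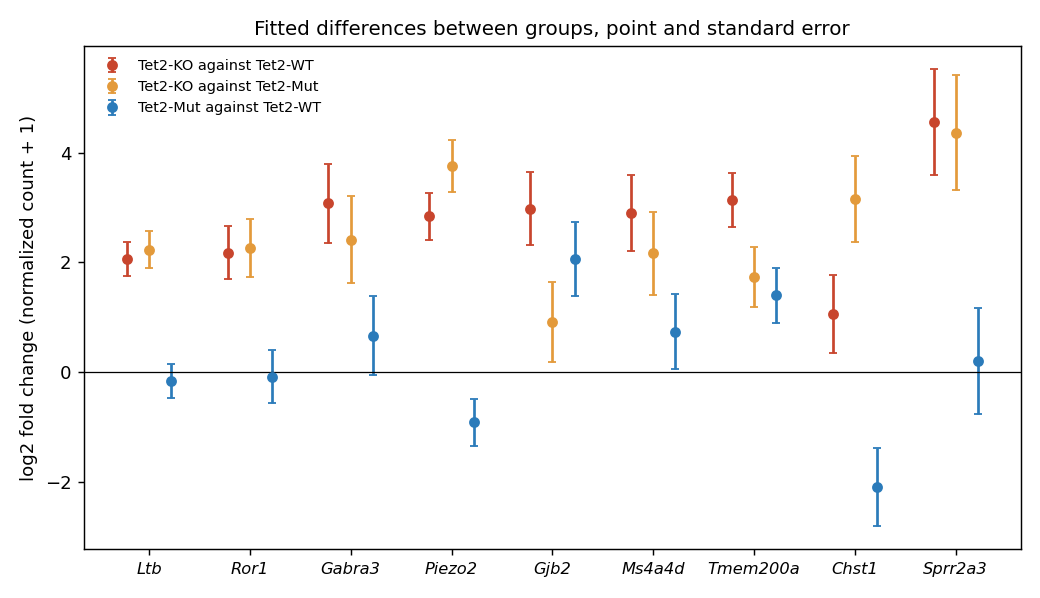
Fitted log2 fold changes on log2(normalized count + 1) of the 9 genes in the 3 comparisons; points are estimates and bars are standard errors. The points for Tet2-KO lie above 0 because the genes were chosen so, and those for Tet2-Mut against Tet2-WT run from -2.10 (Chst1) to 2.06 (Gjb2).

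The clones of a genotype differed in the same direction for most of the genes. Tet2-KO replicate 1 was above replicate 2 for 8 of the 9, all but Chst1, with ratios from 0.757 (Chst1) and 1.03 (Ms4a4d) to 2.92 (Gjb2). Tet2-Mut replicate 1 was above replicate 2 for 8 of the 9, all but Tmem200a, and the ratio reached 5.07 for Gabra3 and 9.25 for Chst1. Over all genes tested these orders held for 51.5% and 50.8%, and over the 2036 genes with both Tet2-KO libraries highest they held for 70.3% and 66.4%.

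The profiles of most of the 9 genes over the 7 libraries were alike, which the choice of the genes in part fixes. The Pearson correlation over 7 libraries of log2 values ran from 0.07 (Gjb2 with Chst1) to 0.98 (Gabra3 with Ms4a4d), with a median of 0.85 over 36 pairs. With the mean profile of the 9, each gene included, r was 0.64 for Chst1, 0.77 for Gjb2 and 0.88 for Tmem200a. For the rest of the 9 it was 0.94 (Piezo2) or more. Genes outside the 9 whose profile was most like their mean profile were Pde5a (r = 0.994), Il15ra (0.994), Tgfa (0.993), Igfbp7 (0.993), Fndc3c1 (0.990), Col5a1 (0.990), Spata13 (0.989) and Wnt3 (0.989). Wnt3, a Wnt ligand of the primitive streak, was at 43.3, 64.0 and 33.0 normalized counts in Tet2-WT, 70.0 and 34.7 in Tet2-Mut, and 378 and 306 in Tet2-KO. Il15ra, the interleukin-15 receptor subunit, was at 11.7, 9.41 and 4.72, then 14.4 and 5.79, then 72.3 and 52.7 in the same order. Among 12413 genes compared, 378 had r above 0.9. Each r rests on the same 7 libraries, and the 9 genes were chosen on these values.

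Relatives and pathway partners of the 9 genes passed the test in a minority of cases. Among 126 tested genes of 207 listed, with the 9 left out, 13 rose and 4 fell in Tet2-KO against Tet2-WT, or 13.5%, beside 5.91% of all genes tested. Against Tet2-Mut 11 rose and 4 fell, or 11.9%, beside 6.19% of all genes. In Tet2-Mut against Tet2-WT 1 rose and 3 fell, or 3.17%, beside 3.43% of all genes. The median log2 differences of the 126 were 0.10, 0.20 and -0.01, beside 0.00, 0.00 and 0.01 for all genes.

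These counts depended on single libraries, as did the counts over all genes tested. Without Tet2-WT replicate 1, 2 or 3 the 1025 genes called in Tet2-KO against Tet2-WT became 94, 98 and 85. The 594 called in Tet2-Mut against Tet2-WT became 7, 6 and 123. Where a Tet2-Mut or Tet2-KO library is left out below, 1 clone remains in that group. The counts over all genes moved in the same direction there, so these moves are not particular to the relatives. For Tet2-KO against Tet2-WT the 17 genes became 4, 2 and 3 without Tet2-WT replicate 1, 2 or 3 and 5 without Tet2-KO replicate 1, but 28 and 29 without Tet2-Mut replicate 1 or 2. For Tet2-KO against Tet2-Mut the 15 became 31 without Tet2-Mut replicate 1. For Tet2-Mut against Tet2-WT the 4 became 0, 0 and 1 without Tet2-WT replicate 1, 2 or 3, 10 without either Tet2-KO library and 16 without Tet2-Mut replicate 1. Of 38 called values of single relatives and neighbours, 9 kept their call whichever library was left out: Prickle1 and Gja1 in both Tet2-KO comparisons, and Ikbkb, Relb, Podxl, Dsp and Piezo1 against Tet2-Mut.

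Ror1 is a receptor of the noncanonical Wnt pathway, which steers cell polarity and movement. Of 30 tested genes 7 rose and 0 fell in Tet2-KO against Tet2-WT, beside 5.91% of all genes tested in either direction. Against Tet2-Mut 3 rose and 0 fell, beside 6.19%. The 7 include the ligands Wnt4 and Wnt5a and the polarity gene Prickle1, while Vangl1, Vangl2, the 3 Celsr, the 3 Dvl and the other 2 Prickle genes did not pass. Prickle1, a planar polarity protein, was at 275, 231 and 208 normalized counts in Tet2-WT, 233 and 150.5 in Tet2-Mut, and 839 and 798 in Tet2-KO. Its Tet2-KO clones agreed closely and lay far from all other libraries (log2 fold change 1.79, SE 0.21, limma adjusted p = 0.00551 against Tet2-WT, and 2.12, SE 0.23, adjusted p = 0.00382 against Tet2-Mut). Wnt5a, the ligand of Ror1, was at 84.9, 65.9 and 89.7 in Tet2-WT, 107 and 73.3 in Tet2-Mut, and 219 and 194 in Tet2-KO, so that both Tet2-KO clones were highest (1.36, SE 0.26, limma adjusted p = 0.0236 against Tet2-WT).

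Wnt4, another noncanonical ligand, was at 91.5, 122 and 80.3 in Tet2-WT, 113 and 69.5 in Tet2-Mut, and 421 and 263 in Tet2-KO. It rose against both groups (log2 fold change 1.77 and 1.89, limma adjusted p = 0.0178 and 0.0146). The co-receptor Ptk7 (0.62) and the receptor Fzd2 (1.21) rose against Tet2-WT, as did Cav1 (2.10) and Cthrc1 (1.15), which are named here after their values were seen. Ror2, the closest relative of Ror1, was at 890.5, 1055 and 999.6 in Tet2-WT, 1018 and 917 in Tet2-Mut, and 1417 and 1130.0 in Tet2-KO, and did not pass (0.37, SE 0.13, limma adjusted p = 0.127). The polarity protein Vangl1 fell in Tet2-Mut against Tet2-WT (-0.52, limma adjusted p = 0.0351). Without Tet2-WT replicate 2 only Prickle1 of the 7 passed, Prickle1 and Ptk7 without Tet2-WT replicate 1 or 3, and the same 2 risen genes with 1 fallen (Rhoa) without Tet2-KO replicate 1.

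Connexins other than Gjb2 went both ways. Of 8 tested, 1 rose (Gja1) and 3 fell in Tet2-KO against Tet2-WT, beside 5.91% of all genes tested in either direction. Gja1, connexin 43 and the main gap junction gene of ESCs, was at 6445, 6493 and 6665 normalized counts in Tet2-WT, 8342 and 8194 in Tet2-Mut, and 14107 and 10840.3 in Tet2-KO (log2 fold change 0.92, SE 0.10, limma adjusted p = 0.00522 against Tet2-WT). The 3 groups did not overlap.

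Gjb5, an epithelial connexin, fell by 0.90 on the log2 scale in Tet2-KO against Tet2-WT (limma adjusted p = 0.0314), opposite to the values of Gjb2. The 3 falls were not past the test without any 1 Tet2-WT library or without Tet2-KO replicate 1. In Tet2-Mut against Tet2-WT Gjc1 fell (-0.41, limma adjusted p = 0.0313).

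Of 24 tested genes of lymphotoxin and TNF signalling, 3 rose and 1 fell in Tet2-KO against Tet2-Mut, beside 6.19% of all genes tested. Against Tet2-WT 0 rose and 1 fell, beside 5.91%. With DESeq2 6 and 5 passed in these comparisons, and whether they differ was not tested. Relb, the transcription factor at the end of the noncanonical NF-kappa B pathway that lymphotoxin beta receptor starts, was at 1108, 1061 and 977 normalized counts in Tet2-WT, 810.4 and 722 in Tet2-Mut, and 1327 and 1428 in Tet2-KO (0.85, SE 0.12, limma adjusted p = 0.00495 against Tet2-Mut). Its level in Tet2-KO was above and in Tet2-Mut below the Tet2-WT range. Its partner Nfkb2 (0.50) and the chemokine Cxcl12 (2.44) rose against Tet2-Mut.

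Ikbkb, the kinase of the canonical NF-kappa B pathway, fell against both groups: 1846, 2020.3 and 1959 normalized counts in Tet2-WT, 2137 and 2082 in Tet2-Mut, and 1356 and 1186 in Tet2-KO (log2 fold change -0.61, limma adjusted p = 0.0105, and -0.73, adjusted p = 0.00490). The receptor gene Ltbr did not pass (0.65, SE 0.22, limma adjusted p = 0.119 against Tet2-WT), with 212, 154 and 203 normalized counts in Tet2-WT, 169 and 206 in Tet2-Mut, and 342 and 256 in Tet2-KO. Both Tet2-KO values of Ltbr were nevertheless the highest of the 7. Lta and Tnf, which lie beside Ltb, have no tested row here.

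Piezo1, the relative of Piezo2 in most non-sensory tissues, differed in Tet2-Mut and not in Tet2-KO. It was at 8922, 8858 and 10367 normalized counts in Tet2-WT, 14387 and 16647 in Tet2-Mut, and 10163 and 8176 in Tet2-KO. Tet2-Mut stood alone as high (0.73, SE 0.11, limma adjusted p = 0.0218 against Tet2-WT), and Tet2-KO was lower than Tet2-Mut (-0.76, SE 0.12, adjusted p = 0.00892). Of the 12 mechanosensitive channel genes tested, 0 passed in Tet2-KO against Tet2-WT with limma and with edgeR, and 2 with DESeq2. At an unadjusted p under 0.05 there were 5. Over all genes tested the limma shares were 5.91% and, unadjusted, 23.2%.

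Around Chst1, 3 of 23 genes of carbohydrate sulfation and keratan sulfate rose in Tet2-KO against Tet2-WT and 0 fell. Over all genes tested 5.91% passed in either direction. Chst15, a chondroitin sulfotransferase, was at 103, 111 and 88.5 normalized counts in Tet2-WT, 116 and 61.7 in Tet2-Mut, and 418 and 301 in Tet2-KO (log2 fold change 1.81, SE 0.30, limma adjusted p = 0.0151 against Tet2-WT). Podxl, a sialomucin that can carry keratan sulfate, rose by 0.92 against Tet2-WT and by 1.11 against Tet2-Mut. Chst7 rose by 1.75 against Tet2-WT with limma adjusted p = 0.0486, close to the threshold.

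Of 14 tested genes of the cornified envelope, the plasma membrane partners S100a10 (log2 fold change 0.43) and S100a11 (0.43) rose in Tet2-KO against Tet2-WT, and the desmosomal protein Dsp rose against Tet2-Mut (1.19, SE 0.18, limma adjusted p = 0.00767). Among 9 tested genes of the GABA-A receptor 0 passed in Tet2-KO against Tet2-WT with limma, edgeR or DESeq2 (4 at an unadjusted p under 0.05), and Gabrg3 fell against Tet2-Mut (-2.58, limma adjusted p = 0.0399). Of 5 tested Ms4a genes 0 passed in Tet2-KO against Tet2-WT with limma, edgeR or DESeq2 (2 at an unadjusted p under 0.05). Tmem200b was at -0.91 in that comparison (SE 0.41, limma adjusted p = 0.225). Over all genes tested 5.91% passed limma's test in Tet2-KO against Tet2-WT and 6.19% against Tet2-Mut.

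**Figure D3:**
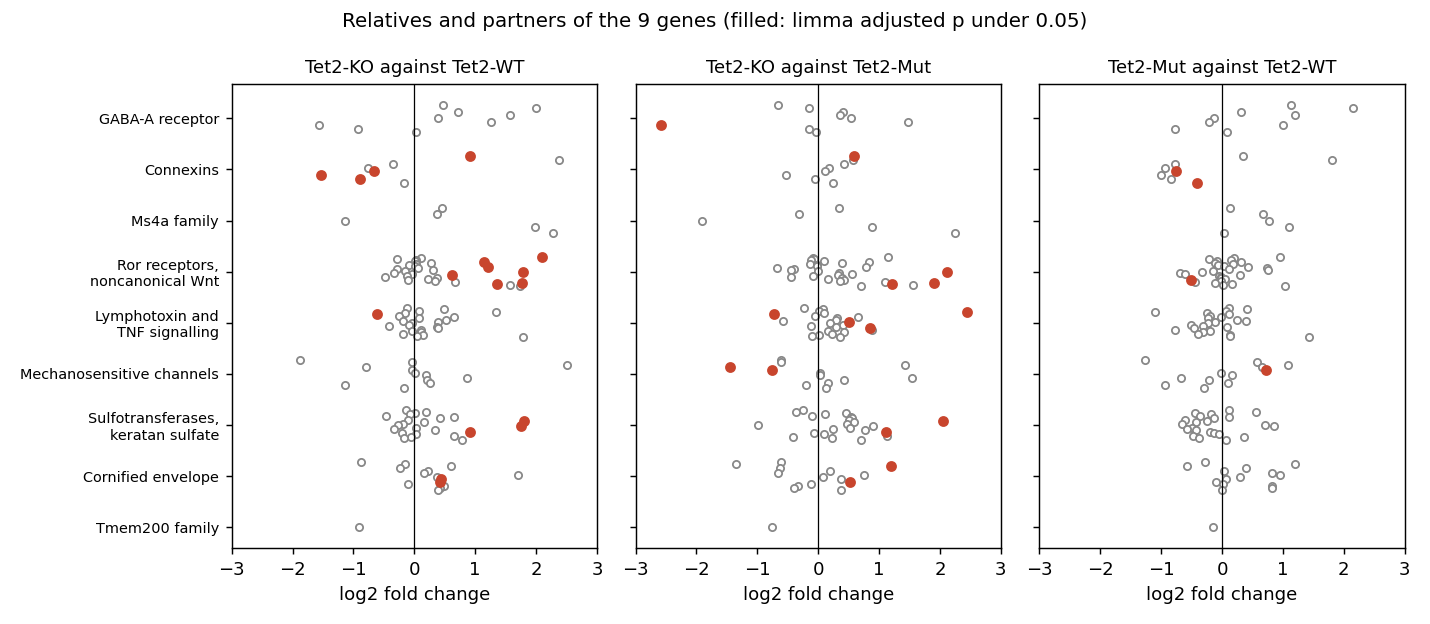
Log2 fold changes (horizontal axis) of the 126 tested relatives and partners of the 9 genes by list (rows) in the 3 comparisons (panels), each point a gene, filled where limma's adjusted p was under 0.05. In Tet2-KO against Tet2-WT the filled points of the noncanonical Wnt row are all on the positive side (7), and those of the connexin row are split (1 and 3). Over all genes tested 5.91% passed in that comparison.

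Few genes next to the 9 on the chromosome passed the test. Of 63 tested genes within 250 kb, 38 of them around Ltb, 2 rose and 0 fell in Tet2-KO against Tet2-WT, or 3.17%, beside 5.91% of all genes, and 2 rose against Tet2-Mut, also 3.17%, beside 6.19%. H2-D1, a classical MHC class I gene 66.8 kb from Ltb, rose against both groups (0.96, SE 0.20, limma adjusted p = 0.0295, and 0.95, SE 0.22, adjusted p = 0.0391). Stx3, 217 kb from Ms4a4d, rose against Tet2-WT (0.53, limma adjusted p = 0.0318), and Clic1, 136 kb from Ltb, rose against Tet2-Mut (0.61, adjusted p = 0.0170).

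At an unadjusted p under 0.05 there were 18 of the 63 against Tet2-WT, beside 23.2% of all genes, and some neighbours had large positive values without passing the test. Lor, a cornified envelope gene 202 kb from Sprr2a3, was at 1.70 on the log2 scale against Tet2-WT (limma adjusted p = 0.0527), Ly6g5b near Ltb at 2.21 (adjusted p = 0.0711) and L3mbtl3 near Tmem200a at 0.82 (adjusted p = 0.0672). These 3 are named after their values were seen. Gabre, a GABA-A receptor subunit gene and the one tested neighbour of Gabra3, was at 1.25 (limma adjusted p = 0.183). Prrc2a and Nfkbil1, the nearest neighbours of Ltb with a tested row, were at 0.08 and -0.22, and Napg, next to Piezo2, at -0.17. Gja3, another connexin 40.6 kb from Gjb2, was at 2.38 with limma adjusted p = 0.212. In the leave-outs that follow, the counts over all genes tested moved in the same direction as those of the neighbours. The 2 neighbours past the test against Tet2-WT became 0 without any 1 Tet2-WT library, 1 without Tet2-KO replicate 1 and 8 without either Tet2-Mut library. The 2 past it against Tet2-Mut became 9 without Tet2-Mut replicate 1, 0 without Tet2-Mut replicate 2 and 1 without any 1 Tet2-WT library or Tet2-KO replicate 1.

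**Figure D4:**
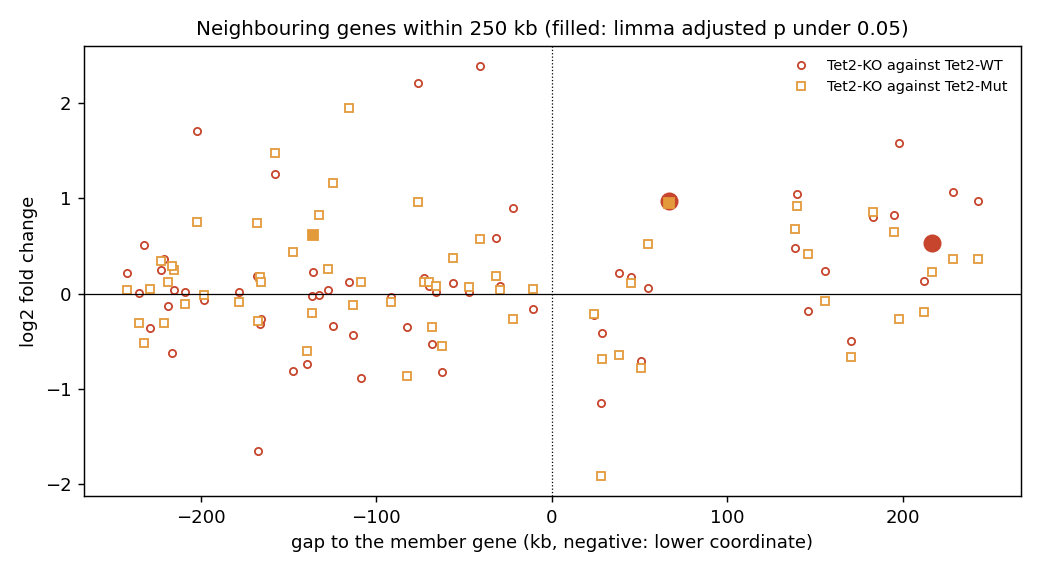
Log2 fold change of 63 tested genes within 250 kb of the 9 genes (vertical axis) against the gap to the nearby gene in kb (horizontal axis), for Tet2-KO against each other group; filled points passed limma's test. The medians are 0.03 and 0.12, single points reach 2.38 (Gja3) and -1.65 (D930015M05Rik, near Chst1) against Tet2-WT, and 3 genes have a filled point; 38 of the 63 genes lie around Ltb.

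Markers of other cell types were read in the same libraries, since the 9 genes belong to such cells and the cultures had been on feeders, which are commonly fibroblasts. Fibroblast markers, taken as a sum, were highest in the libraries where the 9 genes were highest. Their sum over 19 tested of 22 listed was 4197 to 4822 normalized counts in Tet2-WT, 6646 and 4692 in Tet2-Mut, and 16106 and 8843 in Tet2-KO. The largest parts in Tet2-KO replicate 1 were Col5a1 (3740), Acta2 (3429), Col1a1 (2123) and Tagln (1951). Pdgfra alone had a negative log2 difference from Tet2-WT (-0.08), and Dcn, Lum and Fap have no tested row. Of the 19, 6 rose (Col1a1, Col1a2, Col5a1, Col5a2, Tagln and Prrx1) and 0 fell in Tet2-KO against Tet2-WT, beside 3.0% of all genes higher, and 0 passed in Tet2-Mut against Tet2-WT with limma and edgeR (1 with DESeq2, 6 at an unadjusted p under 0.05). In a check added after the data were seen, the 6 became 1, 2 and 0 without Tet2-WT replicate 1, 2 or 3, 13 and 12 without Tet2-Mut replicate 1 or 2, and 1 without Tet2-KO replicate 1. The counts over all genes tested moved in the same direction in these fits. For the fibroblast marker sum replicate 1 was the higher clone in both genotypes, as for 8 of the 9 genes in each. With Tet2-KO replicate 1, the library with the most fibroblast marker RNA, left out, the log2 differences from Tet2-WT ran from 1.26 (Chst1) to 2.89 (Ms4a4d) with a median of 2.39 over 8 of the 9 genes, beside a median of 2.91 over the 9 with it. Sprr2a3 then failed the filter on low values. These are values that chose the genes, and the remaining Tet2-KO library still had a fibroblast marker sum of 8843, above the Tet2-WT range. The part of fibroblast RNA in the values of the 9 genes was not tested.

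Some markers of the primitive streak and mesoderm also rose with the 9 genes. The sum of the list over 10 of 13 was 799 to 956 normalized counts in Tet2-WT, 690 and 515 in Tet2-Mut, and 2245 and 1775 in Tet2-KO. Of the 10, 4 rose (T, Wnt3, Fgf8 and Lhx1) and 0 fell against Tet2-WT, beside 3.0% of all genes higher. The others did not pass, with log2 differences from 0.15 (Kdr) and 0.28 (Tbx6) to 1.90 (Gsc). Lhx1 was at 9.99, 13.2 and 7.08 normalized counts in Tet2-WT and at 4.12 and 3.86 in Tet2-Mut. It met the filter only through Tet2-KO, so it could have been counted only as a rise. The 4 became 1 without Tet2-KO replicate 1 and 2 without any 1 Tet2-WT library. Of 10 trophectoderm markers 3 rose (Cdx2, Krt8 and Krt18), again beside 3.0% of all genes higher. The 3 became 0, 1 and 0 without Tet2-WT replicate 1, 2 or 3. The median log2 difference of the 10 was -0.07, and 5 others had negative values that did not pass, from -0.20 (Ascl2) to -0.96 (Elf5). Their sum, to which Krt8 and Krt18 add most of the difference, was 11985 to 13916 in Tet2-WT, 9289 and 9607 in Tet2-Mut, and 23743 and 18072 in Tet2-KO. What part the cells with these markers had in the values of the 9 genes was not tested.

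Leukocytes, neurons and surface epithelium are cell types for which several of the 9 genes are known. Their marker lists held 1 of 10, 3 of 12 and 2 of 8 tested genes past limma's test in Tet2-KO against Tet2-WT. Over all genes tested the share was 5.91%. Of 10 tested leukocyte markers of 15, 0 rose and 1 fell (Cd68), and the sum was 3449 to 3577 in Tet2-WT, 2545 and 3338 in Tet2-Mut, and 2905 and 2918 in Tet2-KO. Of 12 neuronal markers of 13, 2 rose (Map2 and Gap43) and 1 fell (Elavl3), with sums of 18198 to 19220 in Tet2-WT, 22370.3 and 17503 in Tet2-Mut, and 21681 and 19562 in Tet2-KO. Of 8 surface epithelium markers of 14, 2 rose (Krt19 and Grhl2), with sums of 17977 to 18861, then 17556 and 18517, then 18750.3 and 18885. The median log2 difference of these 8 from Tet2-WT was 0.00, and Grhl3 (-0.95) and Krt17 (-0.59) were lower without passing. Most of each sum came from genes that were high in Tet2-WT too. In Tet2-WT replicate 1 these were Laptm5 (1807) for leukocytes, Stmn2 (9376) and Tubb3 (4684) for neurons, and Epcam (11478) for surface epithelium. Such sums would not show small changes of the scarcer markers. Without Tet2-WT replicate 1, 2 or 3 the counts past the test became 0, 0 and 1 for neurons. They became 0 each time for leukocytes and surface epithelium.

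Markers of endoderm (0 of 8 passed limma, edgeR or DESeq2, 1 at an unadjusted p under 0.05) and endothelium (0 of 8 rose, Pecam1 fell) did not rise. The 10 markers of pluripotent ESCs summed to 311726 to 316902 in Tet2-WT, 309267 and 321848 in Tet2-Mut, and 263536 and 314897 in Tet2-KO, and 1 of them, Tdgf1, fell. All 7 libraries thus carried the ESC markers of their label. No tested marker was listed at 0 in both Tet2-KO libraries.

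**Figure D5:**
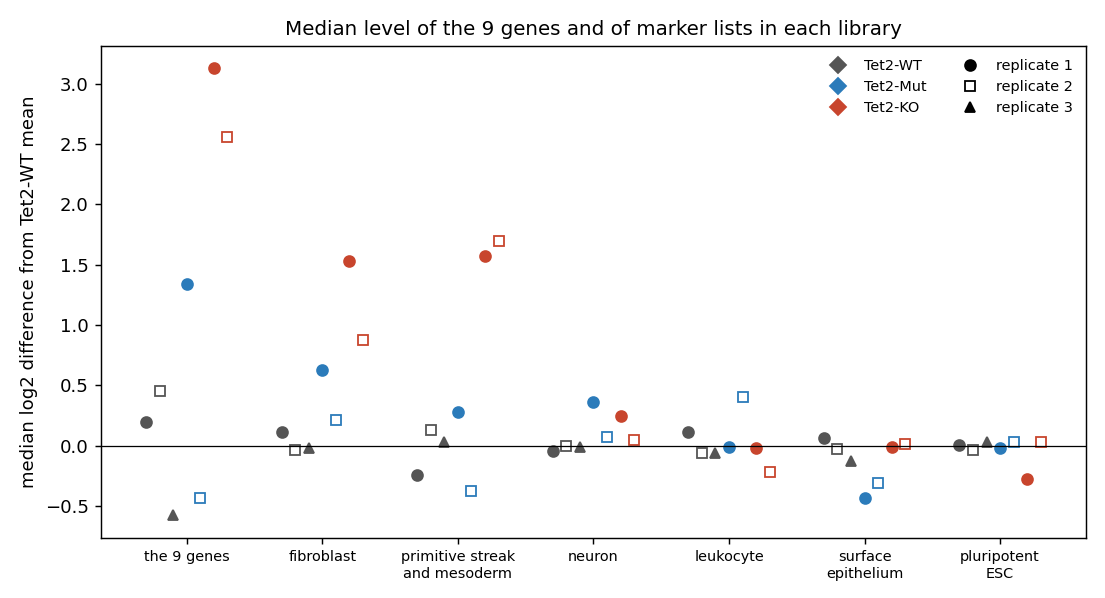
Median over a list of the log2 difference from the Tet2-WT mean (vertical axis) in each of the 7 libraries, for the 9 genes and 6 lists of cell type markers. The 9 genes reach 3.13 and 2.55 in the Tet2-KO clones, fibroblast markers 1.53 and 0.88, streak and mesoderm markers 1.57 and 1.70, and leukocyte markers -0.02 and -0.22.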

How the data were processed

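RNA-seq of 7 ESC libraries was used; 3 bisulfite and 18 CUT&Tag samples were not analysed here. The table deposited by the authors holds a normalized signal on a linear scale, gene counts over the DESeq2 size factor of the library. Among the tools in the submitters' processing notes are featureCounts, DESeq2, STAR (2.7.3a) and Trim Galore (0.6.5), with build mm10; annotation and strandedness are not given in the sources read. Each deposited value was a whole multiple of 1 step per library (tolerance 0.01 reads), which gave back the reads. Of values from 1 to 20 reads, 72.1% to 75.2% per library were even. No gene had under 71 reads in total, which shows a filter before deposit.

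Group differences were fitted in R 4.3.3 by limma 3.58.1, using log2 values with a pseudocount of 1, for the 17338 genes that reached 10 in at least 2 libraries, in 1 model of 3 group means with a mean trend in the prior, and Benjamini-Hochberg adjustment over all of them at 0.05. Fold changes on this scale are too small for low genes. Residual degrees of freedom were 4 and the prior added 5.03; groups share 1 estimate of the spread, which is that between cultures and clones. Alternatives were edgeR 4.0.16 and DESeq2 1.42.0 on the recovered reads, pseudocounts of 0.5 and 10, other filters and scalings, a fit of 2 groups, a replicate block and leaving out each library. The fits were tested on simulated data. Symbols matched RefSeq (GRCm38.p6) for 92.8% of genes.

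The 9 genes, the gene lists and the marker lists were chosen with earlier results of these data known. Named beside the 9 were Tet2, in each list of relatives up to 4 genes past the test by smallest p and fixed close partners, neighbours past the test and nearest ones, and the 8 genes most like the mean profile among those with a Tet2-KO mean of at least 50; markers past the test were named after their values were seen. Some genes taken by this rule are not reported here.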

Additional observations from a re-analysis of the deposited data

How the results depend on the processing

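The differences of the 9 genes between Tet2-KO and the other groups kept their direction in each alternative that fitted them (a filter of 50 and single left-out libraries drop some of them); a pseudocount of 10 lowered Gjb2 to 1.93, Ms4a4d to 2.03 and Sprr2a3 to 2.34 against Tet2-WT and to 2.25 against Tet2-Mut. Single clones moved Tet2-KO against Tet2-Mut by over 1.5 times: without Tet2-Mut replicate 2 Gabra3 was at 1.31, Ms4a4d at 1.10, Ror1 at 1.39 and Chst1 at 1.66, and Gjb2 was at 0.16 without Tet2-KO replicate 1 and at 1.67 without Tet2-KO replicate 2. In Tet2-Mut against Tet2-WT, where none of these passed the test, signs turned for Gabra3 (-0.43) and Ms4a4d (-0.33) without Tet2-Mut replicate 1, for Ror1 with quantile normalization (0.026), edgeR (0.10), DESeq2 (0.10), without Tet2-WT replicate 2 (0.17) and without Tet2-Mut replicate 2 (0.79), for Ltb (0.024) without Tet2-WT replicate 2, and for Sprr2a3 with the replicate block (-0.29), without Tet2-WT replicate 3 (-0.29) and without Tet2-Mut replicate 1 (-0.98). With 1 library left out these 5 ran from -0.43 to 1.77 (Gabra3), -0.33 to 1.81 (Ms4a4d), -0.96 to 0.79 (Ror1), -0.45 to 0.024 (Ltb) and -0.98 to 1.38 (Sprr2a3). The count of the 9 past the test there was 0 without any 1 Tet2-WT library. Leaving out Tet2-Mut replicate 1 moved Piezo2 to -1.56 and Chst1 to -3.60, on 1 Tet2-Mut clone.

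Counts of relatives past the test moved with the model, in the order Tet2-KO against Tet2-WT, Tet2-KO against Tet2-Mut and Tet2-Mut against Tet2-WT. They were 17, 15 and 4 in the fit described, 0, 0 and 0 with no trend in the prior, 29, 0 and 10 with only the 2 groups compared, and 29, 29 and 18 with DESeq2. Counts over all genes tested moved too. They were 1025, 1074 and 594 in the fit described and 19, 10 and 0 with no trend. With only the 2 groups compared they were 2153, 0 and 901, and with DESeq2 1971, 1815 and 1551. Leaving out 1 library gave 2 to 29, 10 to 31 and 0 to 16. Neighbours past the test (2 and 2 in the Tet2-KO comparisons) were 0 and 0 with no trend, 8 and 0 with 2 groups, 8 and 4 with DESeq2, 1 and 1 within 100 kb, 15 and 12 within 1 Mb, and 0 to 8 and 0 to 9 with 1 library left out. The cause was not tested. Replicate numbers do not pair the samples: the 6 same-numbered correlations of deviations ran from -0.07 to 0.09. With the replicate block the relatives were 0, 10 and 0, the neighbours 0 and 1, and the 9 genes 0 in Tet2-Mut against Tet2-WT. Of the values of single relatives and neighbours under the alternatives, 489 kept and 194 lost their call. Depth limits Sprr2a3 and Gjb2 most, with 0 to 13 reads per Tet2-WT library.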
